A study of Homo sapiens with 2 samples.

Results

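The replication-dependent histone genes encode the bulk of the H1, H2A, H2B, H3 and H4 proteins that package newly copied DNA. They were followed in RWPE-1, a noncancerous human prostate epithelial cell line grown in serum-free keratinocyte medium, transfected at 30 nM with Negative control #1 or with pre-miR-424, a synthetic microRNA precursor. RNA of both transfections was hybridised together on 2 Agilent two-colour expression arrays, with pre-miR-424 in Cy5 under normal labelling and in Cy3 on the dye swap. Both transfections were made in the same line, and the arrays are technical replicates of 1 comparison, so the values carry no test and no p-value, and the SD between arrays measures labelling and hybridisation only. Histone probes were those whose RefSeq accession belongs to a histone gene either formerly named HIST1H, HIST2H or HIST3H or now named H1-1 to H1-6, or H2AC, H2BC, H3C or H4C with a number. Of 93 such genes in the gene table, 67 had a probe on the array, out of 19740 named genes, and they were read by 78 of 42405 probes.

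Core histones form the spool of the nucleosome, in which H2A pairs with H2B and H3 with H4, while H1 binds the linker DNA between spools. Most of their genes lie in clusters on chromosomes 6 and 1, are switched on with DNA replication by the activator NPAT, and yield messages that end in a stem-loop bound by SLBP instead of a poly(A) tail. That end is cut by the U7 particle, to which LSM11 belongs. Such messages are commonly underrepresented where amplification begins at a poly(A) tail, as it does with the kit named in the labels, so the detection of each gene is given before its ratio.

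The mature microRNAs of the MIR424 gene are shown because their seed, bases 2 to 8 in capitals, is the part that pairs with target messages. The labels do not say which arm the precursor was made to deliver. Both arms lie on the minus strand of chromosome X in GRCh38.p14 (RefSeq), the 5p arm at chrX:134546680-134546701 and the 3p arm at chrX:134546644-134546664. The 5p seed occurred in 7 human mature microRNAs of the RefSeq table, among them miR-15a-5p and miR-16-5p, which are printed for comparison and differ from miR-424-5p outside the seed.
hsa-miR-424-5p: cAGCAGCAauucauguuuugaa
hsa-miR-424-3p: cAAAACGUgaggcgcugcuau
hsa-miR-15a-5p: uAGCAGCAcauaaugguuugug
hsa-miR-16-5p: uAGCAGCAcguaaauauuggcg

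The arrays held 62976 spots each, with median signals of 149 and 131 in Cy3 and 230 and 244.5 in Cy5, over median backgrounds of 28 to 29 and 69 to 70. Of all probes, 25664 (60.5%) were measured, that is, the scanner software marked them well above background for each RNA on each array and no spot was an outlier, and they stood for 13812 genes. All 8 markers of basal or luminal epithelium were measured, and of 10 markers of fibroblasts, endothelium, leukocytes or secretory luminal cells 5 were. These were COL1A1 and DCN of fibroblasts, CDH5 of endothelium, and PTPRC and CD14 of leukocytes, while KLK3 and TMPRSS2, genes of the secretory luminal cell, were among those not well above background. Taken from the difference between the arrays, a single array had an SD of 0.24 on the log2 scale over all measured probes. The arrays' ratios correlated across genes at a Pearson r of 0.207.

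Histone messages were detected widely. Of the 67 genes, 60 (89.6%) had a measured probe, against 70.0% of all named genes, and of the 78 probes 70 (89.7%) were measured. The core histones were nearly complete, with 14 of 16 H2A, 17 of 18 H2B, 13 of 13 H3 and 13 of 14 H4 genes measured, and of the linker histone H1 only 3 of 6 genes passed. The 7 genes without a measured probe were H1-1, H1-5, H1-6, H2AC1, H2AC2P, H2BC1 and H4C7. H1-6, H2AC1 and H2BC1 are known as testis histones. Counting also a second, dimmer probe of H4C1, 8 histone probes were dim, 6 of them in every channel, and none was detected in one transfection only. The strongest histone probes were those of H4C3, H3-4, H3C3, H2BC13 and H2BC12, and none of the 78 was saturated or an outlier. Histone paralogs have nearly the same coding sequence, and the probe sequences were not analysed here, so a probe may also have taken RNA of sister genes, and the ratios within a family may not be independent.

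As a group the histone genes were slightly higher with pre-miR-424. The median log2 ratio of the 60 measured genes was 0.24, or 1.18-fold, against 0.00 for all 13812 genes, with 0.29 under normal labelling and 0.13 on the swap. On both arrays 48 of the 60 genes lay above 0 and 0 below it, and 12 changed sign between arrays, while of all genes 26.8% were above 0 on both arrays and 26.7% below. The count of 48 depended on the dye correction, since with median centring in place of loess it was 14. That centring left the median of all genes at 0.13 under normal labelling and -0.23 on the swap, and with each array centred on the measured genes the count was 40. The share of all genes above 0 on both arrays was counted with loess only, so the counts of 14 and 40 have no matching share. In the mean of both arrays, a dye shift of equal size on both cancels. This mean was above 0 in 56 genes with loess, where its median over all genes was 0.00. With median centring, where that median was -0.04, it was above 0 in 51 genes. With centring on the measured genes it was above 0 in 56. All changes were small. The means ran from -0.03 to 0.40, 0 genes passed 1.5-fold in one direction on both arrays (0.623% of all genes passed upward and 0.391% downward), and 5 were at least 25% higher on both arrays, where 2.38% of all genes were. At the matching threshold downward, 0.32 on the log2 scale, lay 0 histone genes and 2.29% of all genes.

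**Figure D1:**
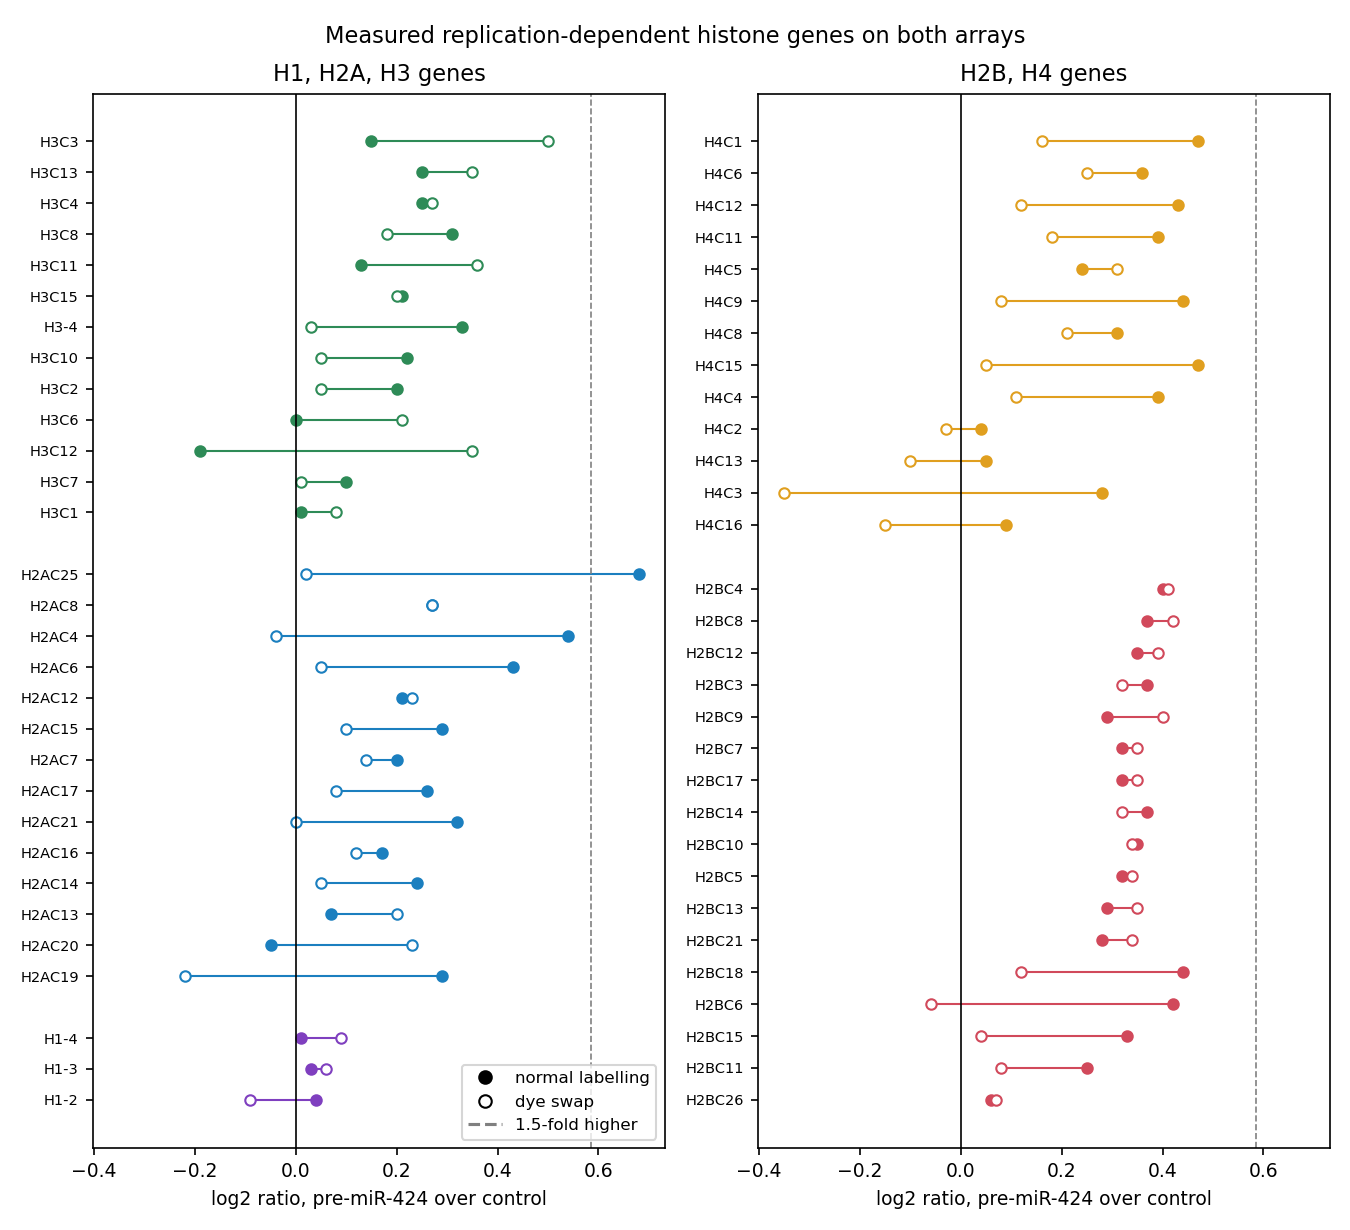
Log2 ratio of pre-miR-424 over control (horizontal axis) for each of the 60 measured histone genes, by family and ordered by the mean of the arrays. Filled points are the array with normal labelling, open points the dye swap, and the dashed line 1.5-fold higher. The H2B points of most genes nearly coincide between 0.28 and 0.42, while most H4 genes and many H2A genes have a higher value under normal labelling.

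The H2B genes had the highest median of the mean ratios and, with loess, agreed best between arrays. Under normal labelling alone, though, the H4 median, 0.36, was higher. The median log2 ratio of H2B was 0.33 on the normal array, 0.34 on the swap and 0.34 for the mean, or 1.26-fold. On both arrays 16 of 17 H2B genes lay above 0. The median SD between arrays was 0.03 for H2B, against 0.13 over all genes and 0.13 over the 43 histone genes of other families. With loess replaced by median centring the H2B median was 0.28 for the mean, from 0.56 under normal labelling and -0.04 on the swap. Every H2B mean remained above 0, but 7 of the 17 lay above 0 on both arrays. With each array centred on the measured genes 15 did. The H2B medians were then 0.43 and 0.19, further apart than those of H3 at 0.18 and 0.12. No share of all genes was counted under either centring.

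By strongest probes, H2BC4 (NM_003526) had the highest mean of all histone genes, though a weaker probe of H2BC21 had 0.45 on both arrays. The normalized log2 level of H2BC4 was 12.94 and 12.83 with pre-miR-424 and 12.54 and 12.42 in the control, under normal labelling and the swap in turn. Both pre-miR-424 values thus lay above both control values. So they did in 45 of the 60 histone genes, 16 of the 17 H2B genes and 22.2% of all genes. The log2 ratio was 0.40 under normal labelling and 0.41 on the swap, a mean of 0.40 ± 0.01 (SD, 2 arrays), or 1.32-fold.

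H2BC8 (NM_003518) showed the same order, with levels of 12.77 and 12.82 against 12.41 and 12.40 and a log2 ratio of 0.39 ± 0.04. H2BC12 (NM_080593), one of the strongest probes, had levels of 14.62 and 14.61 against 14.27 and 14.21 and a ratio of 0.37 ± 0.03. For H2BC10 (NM_003525) the levels were 14.24 and 14.29 against 13.88 and 13.96, a ratio of 0.34 ± 0.01. H2BC17 (NM_003527) had 13.27 and 13.23 against 12.95 and 12.88 and a ratio of 0.34 ± 0.02. These were the 5 genes whose strongest probe was at least 25% higher on both arrays, all of them H2B genes. In each the levels of the transfections did not overlap. Weaker probes of H2BC12, H2BC18, H2BC21 and the H2A gene H2AC17 also passed that threshold, that of H2AC17 with 0.40 and 0.43. Other genes missed it narrowly on 1 array, such as H2BC3 with 0.37 and 0.32 and H2BC5 with 0.32 and 0.34.

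Taking a mean above 0.3 as a mark set after the values were seen, 12 of 17 H2B genes lay past it, between 0.28 and 0.40 under normal labelling and between 0.32 and 0.42 on the swap. Of the other families only H2AC25, H3C3 and H4C1 did by their strongest probe, 1 gene each, and of all 13812 genes 706 did (5.11%). Weaker probes of H2AC17, H2AC6 and H4C12 also lay past the mark, with means of 0.41, 0.39 and 0.31. The H2B genes below the mark were H2BC18, H2BC6, H2BC15, H2BC11 and H2BC26. H2BC26, outside the main clusters on chromosome 1, had the lowest H2B mean, from 0.06 under normal labelling and 0.07 on the swap, and levels of 8.0 and 7.97 against 7.94 and 7.90. H2BC6 had the only mixed signs of the family, 0.42 and -0.06. Its probe was the dimmest measured H2B probe, with levels of 7.58 and 7.35 with pre-miR-424 against 7.16 and 7.41 in the control. The 3 measured probes of H2BC18 disagreed, with mean log2 ratios from -0.02 to 0.41, and its strongest probe gave 0.28.

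**Figure D2:**
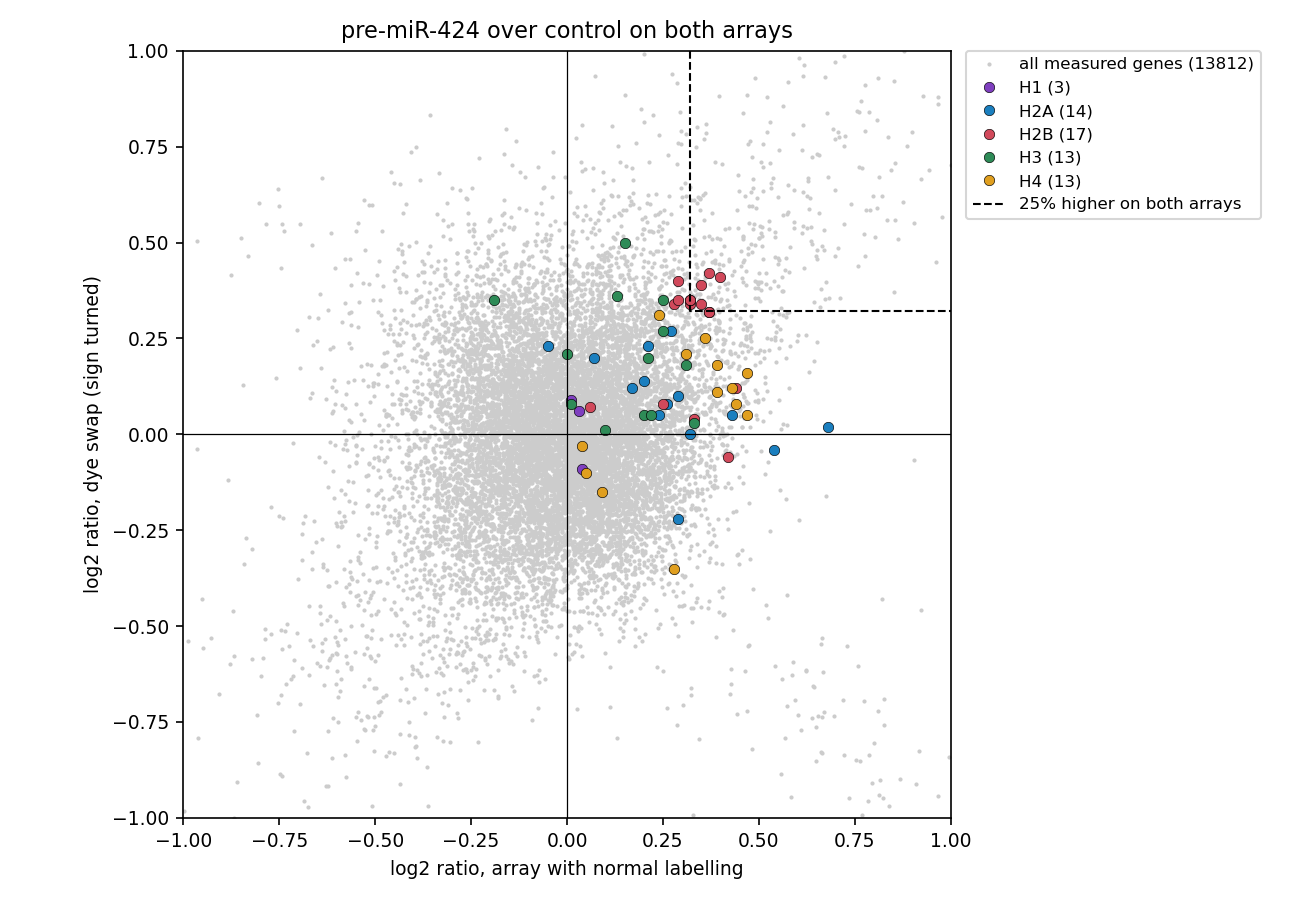
Log2 ratio of each measured gene on the array with normal labelling (horizontal axis) against the dye swap turned to the same direction (vertical axis), with all 13812 genes in grey and histone genes coloured by family. Most H2B genes lie together at the corner of the dashed area, which marks at least 25% higher on both arrays, and 0 histone genes lie below 0 on both axes. The axes leave out 89 genes with a ratio beyond 1 in either direction on at least 1 array, none of them a histone gene.

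The H2A genes, partners of H2B in the nucleosome, had smaller and less even ratios. Their median log2 ratio was 0.26 under normal labelling and 0.09 on the swap, a mean of 0.17 or 1.13-fold, and 10 of 14 lay above 0 on both. The highest, H2AC25 (NM_033445), reached 0.68 under normal labelling, the only histone gene whose strongest probe passed 1.5-fold on either array, but 0.02 on the swap, with levels of 11.92 and 11.67 with pre-miR-424 and 11.24 and 11.65 in the control. Of these levels the control on the normal array stood apart. A weaker probe of H2AC6 had 0.76 and 0.02. H2AC19 (NM_001040874) was lowest, with 0.29 and -0.22, and H2AC4, H2AC20 and H2AC21 also changed sign. H2AC8 was the most even, with 0.27 on both arrays. Under median centring the H2A median was 0.12 for the mean but -0.24 on the swap, where that of H3 was -0.11 and that of H4 -0.14.

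By the median, H4 ratios followed the dye most, with H2A close behind. The H4 median log2 ratio was 0.36 under normal labelling and 0.11 on the swap (mean 0.26, or 1.2-fold). Higher under normal labelling than on the swap were 12 of 13 H4, 11 of 14 H2A and 7 of 17 H2B genes. The part of the ratio that followed Cy5 over Cy3 had a median of 0.12 in H4, 0.09 in H2A, -0.01 in H2B and 0.00 over all genes. By strongest probes this part was largest in the H2A gene H2AC25, at 0.33. H4C1 (NM_003538) had the highest H4 mean, 0.32 ± 0.22, from levels of 8.45 and 8.19 against 7.98 and 8.03. The 9 H4 genes above 0 on both arrays had means between 0.25 and 0.32, and H4C2, H4C3, H4C13 and H4C16 lay between -0.03 and 0.01 with opposite signs on the arrays. H4C16, on chromosome 12, was the only member outside chromosomes 1 and 6.

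H4C3 (NM_003542), the strongest histone probe, had a ratio of 0.28 under normal labelling and -0.35 on the swap, with levels of 16.52 and 16.26 in pre-miR-424 and 16.24 and 16.61 in the control. The scanner software's own ratios for it were 0.02 and -0.01. For H3-4, second in strength and known as the testis H3 histone, the ratios were 0.33 and 0.03 here and 0.07 and 0.36 in the software, so the single-array values of these brightest probes rested on the normalization.

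The H3 genes lay between. Their median log2 ratio was 0.20 on each array and 0.18 for the mean, or 1.13-fold, and 11 of 13 were above 0 on both. H3C3 (NM_003531) had the highest mean, 0.32 ± 0.25, from 0.15 under normal labelling and 0.50 on the swap. Its levels of 14.81 and 15.08 with pre-miR-424 lay above 14.67 and 14.58 in the control. H3C1 (NM_003529) was lowest with 0.01 and 0.08, and H3C12 had the widest difference in the family, -0.19 and 0.35. H3C6 changed sign through a value just under 0 on the normal array.

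Of the linker histones, whose 3 measured genes stood near 0, H1-4 (NM_005321) had 0.01 and 0.09, H1-3 0.03 and 0.06, and H1-2 (NM_005319) 0.04 and -0.09. The H1 median was 0.05 with loess and -0.02 with median centring. Levels of H1-2 overlapped between transfections, at 13.54 and 13.45 with pre-miR-424 and 13.50 and 13.54 in the control.

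**Figure D3:**
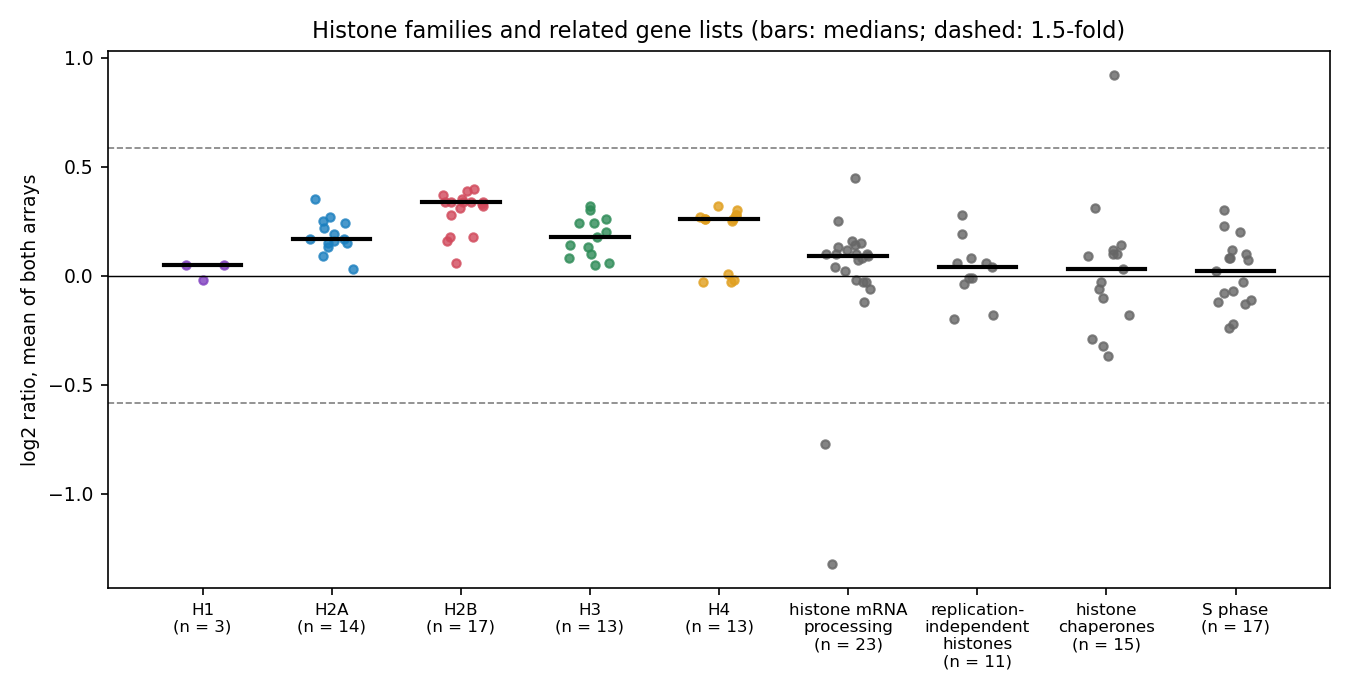
Log2 ratio, mean of both arrays (vertical axis), for the genes of the 5 histone families and of 4 related lists, with 1 point per gene, black bars at the medians and dashed lines at 1.5-fold. The H2B median of 0.34 is the highest of the 9 and the list medians lie between 0.02 and 0.09, with LSM11 and CCNE1 below the lower dashed line and HIRA above the upper one.

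Position and annotated length were compared next. The 48 measured genes of chromosome 6 had a median log2 ratio of 0.24 and the 11 of chromosome 1 one of 0.20, with 40 and 8 above 0 on both arrays. Some histone genes are annotated with a long form, which can carry a poly(A) tail. The 8 genes annotated over more than 1000 bases had a median of 0.29 and the other 52 one of 0.20, but 5 of the 8 were H2B genes, and within H2B the medians were 0.33 (5 genes) and 0.34 (12 genes). Of 9 genes with several measured probes, 7 had the same sign on all of them. The other two were H2BC18, above, and H4C13, with -0.02 and 0.16. The gap between the highest and lowest probe mean of a gene had a median of 0.14, against a median ratio of 0.24 for the group.

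Many H2A and H2B genes lie head to head and share the stretch between their starts. In the RefSeq promoter windows (GRCh38.p14, 250 bases before to 50 after a start), which held 61 of the 67 genes, 10 H2A-H2B pairs had starts on opposite strands 194 to 246 bases apart, and both genes were measured in 9. With each gene read by its strongest probe, the H2B gene had the higher mean in 7 of these 9 pairs. It had the higher value on the normal array in 7 and on the swap in 8, and the median difference was 0.17. In H2AC17-H2BC17 the H2A gene had 0.26 and 0.08 and the H2B gene 0.32 and 0.35. The exceptions by the mean were H2AC15-H2BC15, at 0.19 and 0.18, and H2AC25-H2BC26, at 0.35 and 0.06. The choice of probe mattered, since a weaker probe of H2AC17 had 0.40 and 0.43, above H2BC17 on both arrays. A weaker probe of H2AC6 had a mean of 0.39, just under H2BC4 at 0.40. A weaker probe of H2BC21 had a mean of 0.45, further above H2AC20 at 0.09.

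**Figure D4:**
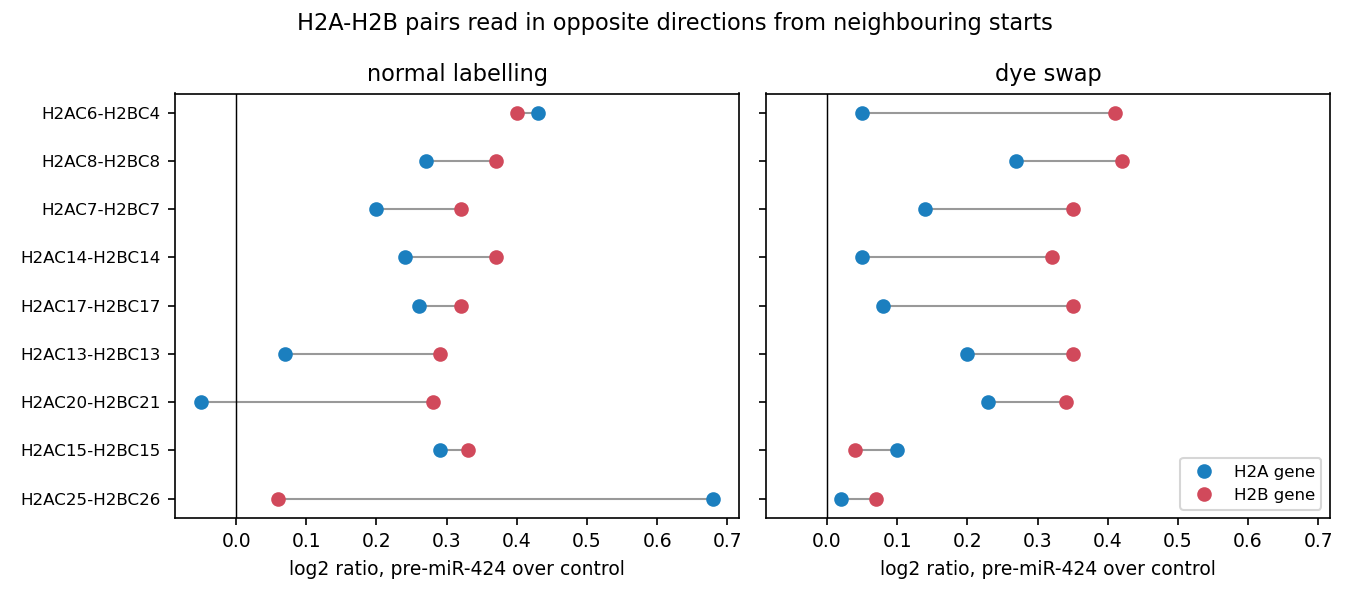
Log2 ratio of pre-miR-424 over control (horizontal axis) of the H2A and the H2B gene in the 9 head-to-head pairs with both measured, on the array with normal labelling (left) and the dye swap (right), each pair joined by a line. On the swap the H2B gene lies to the right in every pair but H2AC15-H2BC15.

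The promoter windows differed by family in a way the rule did not use. The octamer ATTTGCAT, searched on both strands and known as a binding site of OCT1, occurred in 10 of 14 H2A and 14 of 18 H2B genes, in 1 of 11 H3 genes and in 0 of 6 H1 and 0 of 12 H4 genes, against 1.77% of all 35116 windows. CCAAT, on either strand, was in every H1, H2A, H2B and H3 gene but in 3 of 12 H4 genes (34.6% of all windows), and TATAAA in 41 of the 61 (11.5% of all windows). Each motif was counted on its own, and overlaps between motifs were not removed. Genes with the octamer had a median log2 ratio of 0.27 (23 measured genes) and those without it 0.18 (32). Within H2B the medians were 0.34 with (13 genes) and 0.25 without (H2BC5, H2BC13, H2BC15 and H2BC26), and within H2A 0.17 (9 genes) and 0.16 (4 genes). Paired genes share much of their windows, so they are not separate observations.

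The windows of H2BC4 and H1-4 are printed 5′ to 3′ with the motifs in capitals. By strongest probes, H2BC4 had the highest mean ratio of the histone genes and H1-4 the highest of H1. H2BC4, on the minus strand at chr6:26123877-26124176, holds the octamer 123 bases before the start and 3 CCAAT boxes, 1 of them on the opposite strand, and a TATAAA on the opposite strand toward H2AC6. H1-4, on the plus strand at chr6:26156079-26156378, holds CCAAT 54 bases and TATAAA 29 bases before its start, a second TATAAA on the opposite strand, and no octamer in these letters.
H2BC4: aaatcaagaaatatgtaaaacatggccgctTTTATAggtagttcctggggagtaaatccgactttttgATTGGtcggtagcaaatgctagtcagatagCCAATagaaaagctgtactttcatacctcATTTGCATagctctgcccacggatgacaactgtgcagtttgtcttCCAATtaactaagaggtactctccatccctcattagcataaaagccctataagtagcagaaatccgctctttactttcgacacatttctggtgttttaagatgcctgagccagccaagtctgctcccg
H1-4: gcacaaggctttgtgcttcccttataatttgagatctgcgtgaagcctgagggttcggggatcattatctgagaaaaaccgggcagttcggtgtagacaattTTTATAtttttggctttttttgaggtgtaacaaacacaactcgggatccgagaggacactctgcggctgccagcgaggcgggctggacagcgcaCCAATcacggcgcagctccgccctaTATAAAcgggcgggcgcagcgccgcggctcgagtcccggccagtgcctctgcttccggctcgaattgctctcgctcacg

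Genes that act on histone messages did not share one direction. Of 25 listed genes for histone gene activation, message processing and decay, 23 were measured, with a median log2 ratio of 0.09, 9 above 0 and 4 below 0 on both arrays. LSM11 (NM_173491), the U7 protein named above, was lower past 1.5-fold on both arrays, at -1.42 and -1.22, or 2.5-fold lower by the mean. Its levels were 6.96 and 7.28 with pre-miR-424 against 8.38 and 8.50. These pre-miR-424 levels lay near those of dim histone probes, such as 6.59 and 6.77 for H1-6, where the background correction draws ratios towards 0. CCNE1, the cyclin that with CDK2 acts on NPAT, was also lower, at -0.62 and -0.92, with CDK2 itself at -0.07 and 0.21. SLBP, the stem-loop binding protein, had 0.16 on both arrays, and NPAT -0.03 and 0.08. ERI1, an exonuclease that trims and degrades histone messages, was the highest of the list at 0.51 and 0.40, at least 25% higher on both arrays but not past 1.5-fold.

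Replication-independent histones, whose messages carry poly(A) tails, had a median log2 ratio of 0.04 over 11 of 11 genes, with 3 above 0 and 2 below 0 on both arrays. By strongest probes H3-3B, a gene of the H3.3 variant, was highest at 0.46 and 0.11, and MACROH2A2 lowest at -0.21 and -0.19. The probes of H2AZ2 disagreed, with 0.02 and -0.03 for the strongest and 0.24 and 1.05 for a weaker one. None of the 11 genes passed 1.5-fold on both arrays. Among histone chaperones 15 of 16 were measured, with a median of 0.03. HIRA, which deposits H3.3 outside replication, was higher at 0.97 and 0.88, the only chaperone past 1.5-fold, and SSRP1, a subunit of the FACT complex, was lowest at -0.21 and -0.54. The S phase list, of DNA replication and cell cycle genes, gave a median of 0.02 over 17 of 18 genes, 5 above 0 and 5 below 0 on both arrays. It ran from RRM1, a ribonucleotide reductase subunit, at -0.08 and -0.40, to CDT1, a replication licensing factor, at 0.36 and 0.23. In bulk RNA a change in the share of cells in S phase and a change of histone RNA per cell cannot be told apart.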

How the data were processed

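RNA of RWPE-1 cells given pre-miR-424 or Negative control #1 was amplified, labelled and read on 2 Agilent arrays; the labels give groups and dyes. Scanner output deposited by the authors (Feature Extraction 10.7.3.1) holds median spot and background intensity of each channel, linear and not normalized. A deposited column of log10 values gives the ratio of Cy5 over Cy3 computed by the software. A deposited table holds the authors' log2 ratios. Its scale and direction are not stated, and they were found by comparison: its columns matched log2 Cy5 over Cy3, unturned on the swap (Pearson r of 0.991 and 0.988 over probes), with column medians of 0.02 and 0.04. limma is named in the submitters' processing notes.

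In limma 3.58.1 (R 4.3.3), background was corrected by normexp (offset 50, which draws ratios of dim probes towards 0), control spots were dropped and loess was run within arrays. Levels were also scaled between arrays (Aquantile). Probes with an outlier spot, or not well above background in any 1 of the 4 readings, were not used. Of 27134 probes with a RefSeq accession, 25771 (95.0%) were named through the RefSeq gene table (GRCh38.p14), used for names, lengths and neighbours only, since the array design is on hg19. A gene was read by its strongest measured probe. A call needed 1.5-fold in one direction on both arrays. The technical dye swap leaves 1 replicate, so no test was run, and the number of arrays limits the precision.

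The histone genes and the lists were chosen with earlier results of these data known. Genes were named for passing 1.5-fold or the lower threshold of 25%, for the strongest probes, for the highest and lowest mean of a family or list, for probes that disagreed in sign, and SLBP, NPAT and LSM11 always. Further genes were named after their values were seen. The steps were tested on simulated data whose changes were larger than any histone gene ratio, so shifts as small as these were not covered. Other choices of background, normalization, filter, threshold and gene summary were tried. Python 3.11.15, pandas 2.3.3 and numpy 2.4.6 were used.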

Additional observations from a re-analysis of the deposited data

How the results depend on the processing

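The median log2 ratio of the measured histone genes lay between 0.184 and 0.252 under 10 alternatives of background, normalization, filter and gene summary, and was 0.131 without replicate 1 (the normal array) and 0.287 without replicate 2 (the swap). The number of histone genes past 1.5-fold on both arrays was 0 under every alternative of these and at 2-fold, 5 at a threshold of 25%, and 0 or 1 on a single array, where H2AC25 passed on the normal array alone. The number above 0 on both arrays lay between 40 and 50 except with median centring without loess, where it was 14; on single arrays 51 and 57 genes lay above 0. That centring left a dye shift in the measured genes (medians of 0.13 and -0.23). Centring on their median gave 40, an alternative chosen after seeing the data, like all those for this count and for the families. The share of all genes above 0 on both arrays was counted in the main setting only. The H1 median turned to -0.017 with median centring. The number of genes measured was 60 to 64. Mean spot signals and the gene name column of the scanner files were not analysed here, so these alternatives were not run. Each ratio compared both transfections within 1 array, and the 2 arrays hold 1 comparison, so no further pairing of replicates was possible. With 1 technical dye swap, the SD between arrays (with loess, median 0.09 for the histone genes and 0.03 for H2B) leaves out the spread between transfections.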
